A study of Mus musculus with 6 samples.

Results

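The genes described here are 10 genes of glucose uptake and glycolysis: the transporter gene Slc2a1, the hexokinase genes Hk2 and Hk3, the phosphofructokinase genes Pfkl and Pfkp, and the enzyme genes Aldoa, Tpi1, Pgk1, Pgam1 and Ldha. They were chosen by symbol, and all 10 were found among the 24454 gene symbols of the count table. PolyA-enriched RNA of primary macrophages of the peritoneal cavity, kept in culture, from wild-type male C57BL6/J mice of 6 to 8 weeks was sequenced in 6 libraries, 2 in each of 3 groups. The groups were vehicle (5 h), LPS, a bacterial endotoxin, at 10 ng/ml for 4 h, and the AHR (aryl hydrocarbon receptor) ligand SGA360 at 10 µM for 1 h, with LPS then added as in the LPS group. No group received SGA360 without LPS, and the labels do not say whether the LPS group was pretreated with a vehicle. They do not tie replicate libraries to different animals or cultures either, so each p-value reflects how far these libraries differ, and that may be technical.

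Glycolysis breaks glucose down to pyruvate in the cytosol and yields ATP without oxygen. Transport into the cell, phosphorylation by hexokinase and the phosphofructokinase step are main points of control, as is pyruvate kinase at the end, whereas aldolase, triose phosphate isomerase, phosphoglycerate kinase and phosphoglycerate mutase work near equilibrium. Macrophages that meet LPS are known for a shift towards glycolysis with export of lactate, and the transcription factor HIF-1 is a known activator of many of these genes.

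Of the 10 genes, 6 have 1 transcript row in the deposited table (Slc2a1, Hk2, Pfkl, Tpi1, Pgk1 and Pgam1), and each had at least 826 counts in every library. The other 4 (Hk3, Pfkp, Aldoa and Ldha) have 2 to 4 rows and at most 25 counts in any library. That is common in this table, where symbols with several rows number 5639 and take 1.87% of the counts. No library had a count for 51.0% of them, while this held for 37.1% of the 18815 single-row symbols. No source used here says how reads shared by several rows were treated, so the values of these 4 genes are uncertain and say nothing firm about their expression. A filter on low counts kept 8 of the 10 genes, and Hk3 and Ldha did not pass it.

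Total counts ranged from 7726973 to 9529817 per library. Vehicle replicate 1 stood apart, with a count for 10001 symbols against 12282 to 12643 elsewhere and 4.92% of its counts from the ribosomal RNA gene Rn45s against 0.22% to 0.684% elsewhere. The 10 macrophage markers listed summed to 20862 to 25095 CPM (counts divided by TMM-scaled library size) in each library. This sum was carried by Lyz2, at 18255 to 22237.5 CPM, while Timd4 was at 2.08 to 8.97 CPM and Itgam, a gene with 2 rows, at 0. The cultures also held transcripts of other cells: 7 fibroblast markers summed to 4418 to 5379 CPM, carried by collagen genes, with Pdgfrb at 0. Mesothelial markers (9 genes, Gpm6a at 0) summed to 491 to 517 CPM in vehicle and to 346 to 365 CPM in the 4 LPS-treated libraries. Over all genes tested, 19.4% were called higher with LPS and 17% lower. Of the macrophage markers 2 of 9 tested rose with LPS (Adgre1 and Timd4) and 5 fell, among them Mertk (−2.14, adjusted p = 1.51e-07) and Fcgr1 (−2.39, adjusted p = 1.41e-07). Of the mesothelial markers 3 of 8 fell and 0 rose, and of the fibroblast markers 1 of 5 fell. Of 2 tested neutrophil markers Camp was called higher, and of 5 tested mast cell markers Fcer1a was, at means of 2.03 and 1.68 CPM with LPS. In vehicle Camp had 0 and 0 counts and Fcer1a 2 and 4, so both passed the filter on low counts only through LPS-treated libraries. The more abundant mast cell markers Cpa3, Mcpt4, Tpsb2 and Cma1 and the neutrophil marker S100a8 had no call. Of 7 tested markers of B cells, eosinophils and dendritic cells 0 were called. Their part in the results below was not tested.

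The sequences shown are the 250 bases before the RefSeq start of 3 genes that rose with LPS (Slc2a1, Hk2 and Pgk1) and of 2 abundant genes without a call (Tpi1 and Pgam1). They come from RefSeq (GRCm38.p6, the assembly of mm10), are written 5′ to 3′ on the gene's strand, and carry in capitals each match to ACGTG or GCGTG on either strand. These are the core letters bound by HIF factors, and GCGTG is also the core bound by AHR with its partner.
Slc2a1 (chr4:119108495-119108744, plus strand): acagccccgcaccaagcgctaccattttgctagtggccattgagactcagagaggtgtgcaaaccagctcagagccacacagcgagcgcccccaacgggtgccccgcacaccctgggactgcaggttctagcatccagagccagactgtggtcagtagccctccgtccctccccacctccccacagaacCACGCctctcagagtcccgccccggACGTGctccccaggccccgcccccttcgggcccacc
Hk2 (chr6:82774455-82774704, minus strand): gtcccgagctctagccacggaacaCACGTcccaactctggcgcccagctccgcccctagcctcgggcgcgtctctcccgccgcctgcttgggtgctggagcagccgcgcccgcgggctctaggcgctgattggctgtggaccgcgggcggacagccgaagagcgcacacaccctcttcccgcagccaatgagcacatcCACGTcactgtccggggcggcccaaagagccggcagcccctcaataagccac
Pgk1 (chrX:106186850-106187099, plus strand): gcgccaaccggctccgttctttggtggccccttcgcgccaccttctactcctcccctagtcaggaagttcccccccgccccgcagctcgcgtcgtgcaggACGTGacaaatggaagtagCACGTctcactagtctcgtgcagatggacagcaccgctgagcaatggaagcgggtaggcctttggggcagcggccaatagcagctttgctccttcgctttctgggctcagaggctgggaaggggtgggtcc
Tpi1 (chr6:124814159-124814408, minus strand): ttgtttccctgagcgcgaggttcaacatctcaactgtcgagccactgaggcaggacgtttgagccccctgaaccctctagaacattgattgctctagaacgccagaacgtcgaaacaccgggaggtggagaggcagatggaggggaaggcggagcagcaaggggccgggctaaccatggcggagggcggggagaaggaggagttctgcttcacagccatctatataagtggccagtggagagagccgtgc
Pgam1 (chr19:41911621-41911870, plus strand): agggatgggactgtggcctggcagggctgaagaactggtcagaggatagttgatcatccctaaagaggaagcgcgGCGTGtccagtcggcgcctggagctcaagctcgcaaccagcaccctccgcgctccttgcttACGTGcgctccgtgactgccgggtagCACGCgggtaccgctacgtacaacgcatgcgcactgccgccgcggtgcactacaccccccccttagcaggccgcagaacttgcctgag
Slc2a1 had 1 match to each of the motifs, Hk2 and Pgk1 had 2 matches to ACGTG each, Tpi1 had 0, and Pgam1 had 1 match to ACGTG and 2 to GCGTG. Pfkl, not shown, had 1 match to GCGTG. At least 1 match to either motif was found in 38.6% of the 32851 windows of this length in the RefSeq table, and at least 2, with overlapping matches merged, in 13.5%. The windows of these genes held 58.4% (Tpi1) to 69.6% (Hk2) G or C, against a median of 52.4% over all windows. Shares among windows of like G and C content were not counted. The E-box CACGTG, found in 6.02% of all windows, was not among the letters of these 6 windows. A match is a description of letters only. The RefSeq start of Tpi1 lies inside the deposited transcript, so that 138 of the 250 bases shown are within its span, and its count of matches is not one for the bases before the deposited start. For Pgam1 the window ends at the deposited start, and the start in GENCODE lies 52 bases further on. For Slc2a1 the GENCODE start lies at −34 from the RefSeq start, within the window shown. That of Pfkl lies at −276, so its window is wholly within the GENCODE gene.

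LPS against vehicle addresses how the endotoxin by itself moved these genes. Transcripts of the first steps, uptake by Slc2a1 and phosphorylation by Hk2, were more than doubled, with a fold of 2.52 and 2.27. Pgk1, the first ATP-forming enzyme of the pathway, rose by a fold of 1.36 and Pfkl, the liver-type phosphofructokinase, by a fold of 1.18. Tpi1 and Pgam1, near-equilibrium enzymes as is Pgk1, did not pass the test, and their 95% intervals spanned −0.22 to 0.10 on the log2 scale. In all, 5 of the 8 tested genes were higher and 0 lower, and of the 6 with 1 row 4 were higher. Pfkp and Aldoa, at 0 to 6 counts in the vehicle libraries, passed the filter on low counts only through LPS-treated libraries. The filter thus favoured this direction for them, and they add no support. Over all 9389 genes tested, 36.4% were called, 19.4% higher and 17% lower, and 45.1% had an unadjusted p under 0.05. Of the symbols with 1 row 37.9% were called. The groups did not overlap for any of the 8 genes, 6 of them above vehicle (Pfkp and Aldoa included) and 2 below, and for 65.9% of all genes (33.1% above, 32.7% below). The median log2 fold change was 0.34 for the 6 genes with 1 row and −0.01 over all genes tested.

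Slc2a1 encodes GLUT1, the basal glucose transporter of many cells. Its level was 92.3 and 93.0 CPM in vehicle replicates 1 and 2, 230.8 and 236.7 CPM in the LPS libraries, and 227.2 and 240.4 CPM in those of SGA360+LPS. All 4 LPS-treated libraries lay far above both vehicle libraries, and the treated groups overlapped. The log2 fold change of LPS against vehicle was 1.33 (SE 0.07, 95% interval of the fold 2.25 to 2.82, adjusted p = 2.87e-07), and with any 1 library left out or any other setting tried it stayed between 1.31 and 1.38.

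Hk2 encodes hexokinase 2, which traps glucose in the cell as glucose 6-phosphate and can bind to mitochondria. It stood at 98.8 and 114.2 CPM in vehicle, 244.0 and 239.3 CPM in the LPS libraries, and 233.6 and 238.4 CPM in those of SGA360+LPS. The vehicle libraries were again the low ones, with no overlap. The log2 fold change with LPS was 1.18 (SE 0.08, 95% interval 1.00 to 1.37, adjusted p = 1.91e-06). Slc2a1 and Hk2 ranked 556 and 651 by log2 fold change among the 9389 genes.

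Pgk1 makes ATP from 1,3-bisphosphoglycerate. Its level was 537.7 and 492.8 CPM in vehicle, 673.7 and 729.7 CPM in the LPS libraries, and 650.0 and 692.5 CPM in those of SGA360+LPS. Both vehicle libraries lay below the 4 others. The log2 fold change with LPS was 0.45 (SE 0.07, 95% interval 0.28 to 0.61, adjusted p = 0.000891). Stretches of at least 200 bases with 95% identity or more to the Pgk1 transcript were found in transcripts of 4 other annotated genes, so reads could have been split between copies and its level is uncertain for that reason.

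Pfkl is part of the enzyme of the committed step. It stood at 220.9 and 197.9 CPM in vehicle, 246.4 and 248.2 CPM in the LPS libraries, and 244.9 and 248.2 CPM in those of SGA360+LPS. The LPS libraries lay above both vehicle libraries, which themselves were further apart than the treated ones. The log2 fold change was 0.24 (SE 0.07, 95% interval 0.08 to 0.40, adjusted p = 0.0273). This call is fragile: it was lost without vehicle replicate 2 (adjusted p = 0.0541), without LPS replicate 1 (adjusted p = 0.0891) or 2 (adjusted p = 0.116), and in a fit on the 2 groups alone (adjusted p = 0.0551). Over the 14 alternatives the adjusted p ran from 0.00205 to 0.116.

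Tpi1, which interconverts the triose phosphates, stood at 574.5 and 613.3 CPM in vehicle and at 565.9 and 555.5 CPM with LPS. Both LPS libraries lay slightly below both vehicle libraries, and the log2 fold change of −0.08 (95% interval −0.22 to 0.06, adjusted p = 0.343) did not pass the test. Pgam1, the phosphoglycerate mutase, was the most abundant of these 6 genes per length. It stood at 1046 and 1025 CPM in vehicle and at 1019 and 1006 CPM with LPS, a log2 fold change of −0.03 (95% interval −0.16 to 0.10, adjusted p = 0.714). The intervals of Slc2a1 and Hk2 lay wholly above those of the other 4 genes with 1 row. The interval of Pgk1 lay above those of Tpi1 and Pgam1, and overlapped that of Pfkl. A stretch of at least 200 bases with 95% identity or more was found in 1 other annotated gene each for Tpi1 and Pgam1, so their levels carry the same uncertainty as that of Pgk1.

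**Figure D1:**
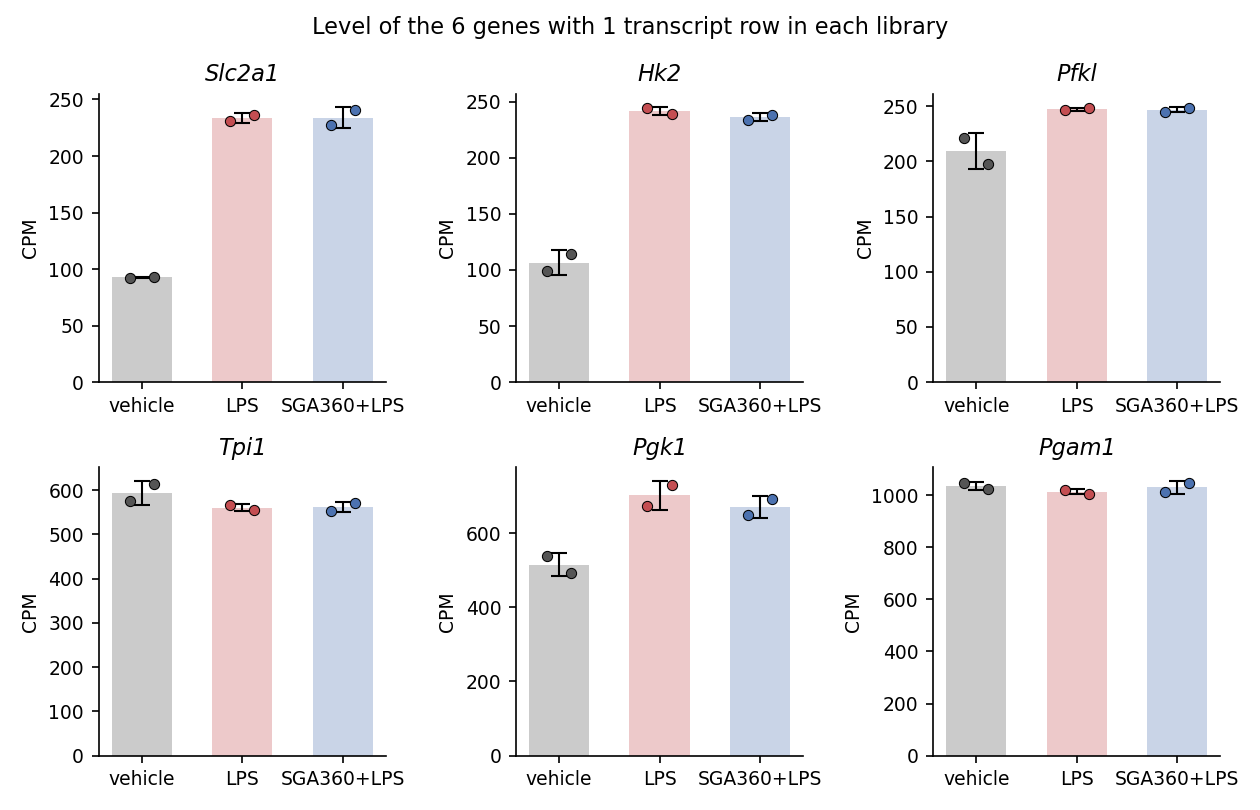
Level in CPM (vertical axes, from 0) of the 6 genes with 1 transcript row in vehicle, LPS and SGA360+LPS; points are the 2 libraries of a group, bars their mean and error bars the SD. The 4 LPS-treated libraries of Slc2a1 lie between 227.2 and 240.4 CPM against 92.3 and 93.0 CPM in vehicle, while those of Pgam1 lie at the level of vehicle.

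Among the 4 genes with several rows, Pfkp, the platelet-type phosphofructokinase, had 0 and 4 counts in vehicle, 14 and 25 with LPS, and 9 and 14 with SGA360+LPS. The LPS libraries lay above the vehicle libraries, and the call was higher (log2 fold change 3.35, SE 0.93, adjusted p = 0.0177). It rests on 43 counts: the ratio of summed scaled counts was 10.9, with a 95% counting interval (exact) of 3.92 to 41.8. The call was lost without LPS replicate 1 (adjusted p = 0.1) or 2 (adjusted p = 0.205) and without SGA360+LPS replicate 1 (adjusted p = 0.0753) or 2 (adjusted p = 0.0804). With vehicle replicate 2 left out, vehicle has no count and the fitted value of 7.32 is no bound. The span of Pfkp also overlaps that of Pitrm1 on the opposite strand, and no source used here says if counting took account of strand.

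Aldoa, the aldolase of muscle and most other tissues, had 0 and 6 counts in vehicle, 13 and 10 with LPS, and 12 and 11 with SGA360+LPS. The ratio of summed scaled counts of LPS to vehicle was 4.27 (95% counting interval 1.69 to 12.8), and the model gave 2.08 (SE 0.99, adjusted p = 0.133), with no call. It was called without vehicle replicate 2 (adjusted p = 0.00293), where vehicle has no count. Ldha, which turns pyruvate into lactate, had 3 and 0 counts in vehicle, 0 and 1 with LPS, and 0 and 3 with SGA360+LPS. No comparison was possible on so few counts, in a gene with 3 rows. Hk3 had 0 counts in all 4 of its rows in every library, which allows up to 0.312 to 0.399 CPM per library for reads counted to those rows, and counting error is all that this limit covers. Transcripts of 4 other annotated genes share a stretch of at least 200 bases and 95% identity with Ldha.

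The pattern within a library needs no scaling between libraries. Per base of exon, the ratio of Slc2a1 to Pgam1 counts was 0.0628 and 0.0646 in vehicle and 0.161 and 0.167 with LPS, a ratio of means of 2.58. For Hk2 to Pgam1 it was 0.0314 and 0.0370 in vehicle and 0.0795 and 0.0790 with LPS, a ratio of means of 2.32. The ratio of Tpi1 to Pgam1 was 0.627 and 0.683 in vehicle and 0.634 and 0.631 with LPS, and these overlapped. Relative to Pgam1, Slc2a1 and Hk2 were higher in both LPS libraries than in both vehicle libraries, by more than the spread between replicates.

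Per length, in RPKM (CPM per kilobase of exon in the deposited table), the order of levels in vehicle was Pgam1 at 564 ± 8.06, Tpi1 at 369 ± 17.1, Pgk1 at 281 ± 17.3, Pfkl at 56.0 ± 4.35, Slc2a1 at 35.9 ± 0.199 and Hk2 at 19.3 ± 1.97 (mean ± SD, n = 2). No neighbours in that order overlapped. With LPS the order was Pgam1 at 551 ± 5.22, Pgk1 at 382 ± 21.5, Tpi1 at 349 ± 4.55, Slc2a1 at 90.5 ± 1.62, Pfkl at 66.1 ± 0.346 and Hk2 at 43.7 ± 0.593. Pgk1 and Slc2a1 each moved up by 1 place, past Tpi1 and Pfkl. The ratio of Pgk1 to Tpi1 per length went from 0.820 and 0.704 in vehicle to 1.04 and 1.15 with LPS, and that of Slc2a1 to Pfkl from 0.605 and 0.681 to 1.36 and 1.38. Together the 10 genes made up 2554 ± 23.5 CPM in vehicle, 3001 ± 25.1 CPM under LPS and 2983 ± 82.4 CPM under both agents.

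**Figure D2:**
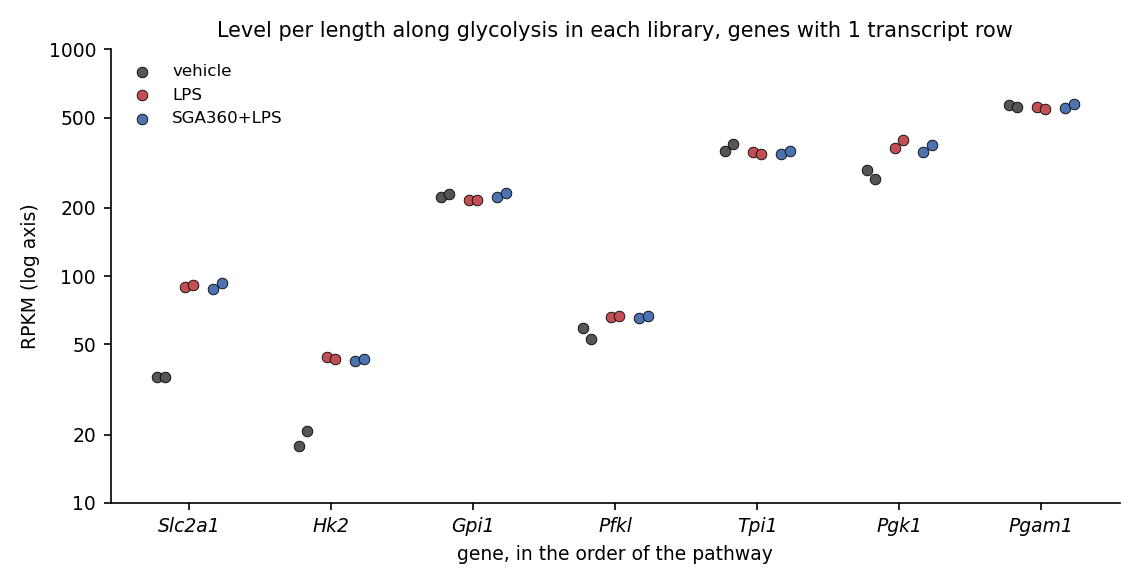
RPKM (log axis) in each library of the 6 genes with 1 transcript row and of Gpi1, in the order of the steps they serve; each point is a library. Vehicle lies lowest at Slc2a1, Hk2, Pfkl and Pgk1, and the groups lie together at Gpi1 and Pgam1.

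SGA360+LPS against LPS addresses whether the AHR ligand altered these genes under the endotoxin. None of the 8 tested genes passed the test in either direction (0 higher, 0 lower, 0 at an unadjusted p under 0.05 by edgeR, and 0 called by DESeq2). Over all genes 0.0746% were called, 0% higher and 0.0746% lower, and 2.94% had an unadjusted p under 0.05. Of the symbols with 1 row 0.0822% were called. The 95% intervals of the log2 difference were −0.15 to 0.16 for Slc2a1, −0.21 to 0.14 for Hk2, −0.17 to 0.16 for Pfkl, −0.14 to 0.14 for Tpi1, −0.23 to 0.10 for Pgk1 and −0.11 to 0.16 for Pgam1. As folds these intervals ran from 0.855 at the lowest, for Pgk1, to 1.12 at the highest, for Pfkl. The rises of Slc2a1 and Hk2 with LPS, 1.33 and 1.18 on the same scale, are far larger than these intervals are wide. Of the 6 genes with 1 row the groups did not overlap for Hk2 alone, lower by 0.03 on the log2 scale, and over all genes 39.5% did not overlap (19.9% higher, 19.6% lower). For Pfkp (39 counts in the LPS libraries, 23 with SGA360+LPS) the interval of −2.39 to 0.88 was too wide for any statement.

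The comparison of SGA360+LPS with vehicle shares its vehicle libraries with that of LPS and vehicle. Here 4 of the 8 tested genes were higher and 0 lower, where 33.1% of all genes were called, 17.9% higher and 15.2% lower, and 34.5% of those with 1 row. The groups did not overlap for 7 of the 8 genes, 6 above vehicle and Tpi1 below, and for 64.9% of all genes (32.9% above, 32% below). Among those above are Pfkp and Aldoa, which passed the filter on low counts only through LPS-treated libraries. The log2 fold changes were 1.34 for Slc2a1 (SE 0.07, adjusted p = 3.04e-07), 1.15 for Hk2 (SE 0.08, adjusted p = 2.52e-06), 0.38 for Pgk1 (SE 0.07, adjusted p = 0.00256) and 0.24 for Pfkl (SE 0.07, adjusted p = 0.032). The call of Pfkl was again lost without vehicle replicate 2 (adjusted p = 0.0586), without SGA360+LPS replicate 1 (adjusted p = 0.113) or 2 (adjusted p = 0.152) and in the fit on the 2 groups (adjusted p = 0.0595). Pfkp, at 2.59 (adjusted p = 0.0661), had no call. Tpi1 (−0.08, adjusted p = 0.37) and Pgam1 (−0.01, adjusted p = 0.946) did not pass the test.

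**Figure D3:**
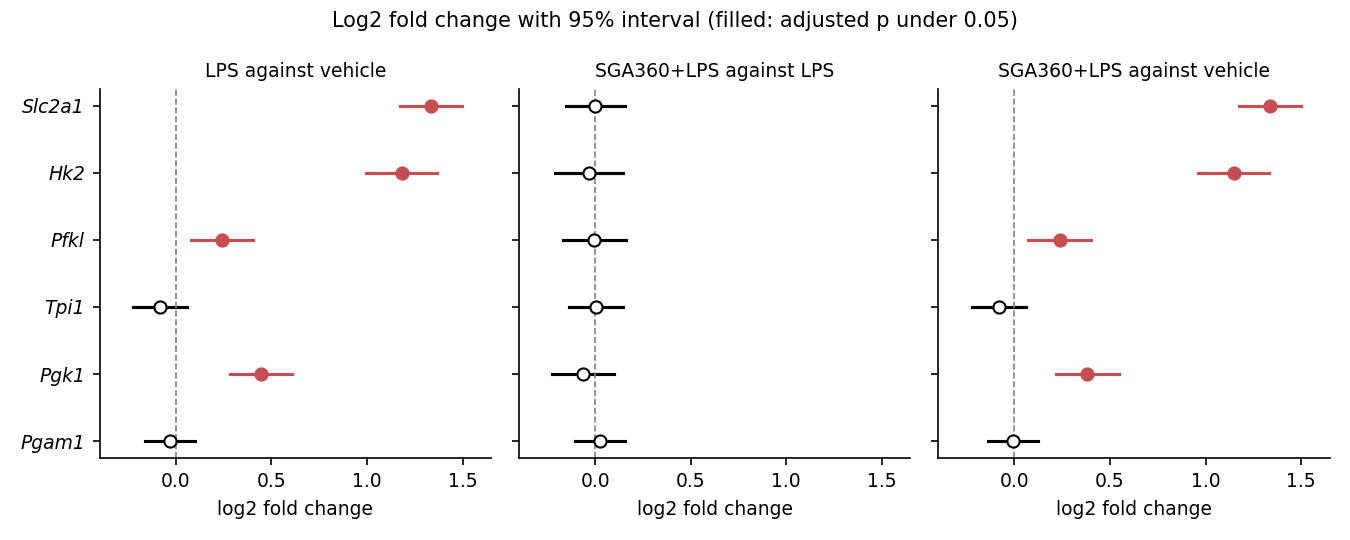
Log2 fold change (horizontal axis) with its 95% interval for the 6 genes with 1 transcript row in the 3 comparisons; filled points have an adjusted p under 0.05. Slc2a1 and Hk2 lie near 1.33 and 1.18 with LPS against vehicle, and all 6 intervals of SGA360+LPS against LPS include 0.

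Genes around the pathway were read from 8 lists chosen by function, of which 66 genes were tested. With LPS 12 of them rose, 17 fell and 37 had no call, which is 29 calls where the background was 36.4%. The median log2 fold change over the 66 was −0.05, against −0.01 over all genes. With 1 library left out, the count of calls ran from 20 without LPS replicate 1 or 2 to 36 without vehicle replicate 2.

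Among other hexose transporters, Slc2a8, an intracellular transporter, fell from 30.5 and 33.6 CPM in vehicle to 11.4 and 11.0 CPM with LPS (log2 fold change −1.51, SE 0.16, adjusted p = 3.71e-05), opposite to Slc2a1. Slc2a6, also found on lysosomes, was called higher (5.42, adjusted p = 0.000277) on 0 and 2 counts in vehicle against 30 and 58 with LPS, a ratio of 49.0 with a counting interval of 13.2 to 411. It has 2 rows and its level is uncertain, and it passed the filter on low counts only through LPS-treated libraries. Slc2a3, the high-affinity transporter GLUT3, stood at −0.37 (adjusted p = 0.446) and Slc2a10 at 0.85 (adjusted p = 0.331), and neither had a call. The result of each depended on which vehicle library was kept. Slc2a10 was at 0.67 and 4.16 CPM in vehicle and at 4.92 and 3.94 CPM with LPS, and these overlapped. It too passed the filter on low counts only through LPS-treated libraries. Per length, Slc2a1 made up 69.0% and 65.5% of the summed level of Slc2a1, Slc2a3, Slc2a6 and Slc2a8 in vehicle and 90.5% in both LPS libraries.

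None of the 5 tested other glycolytic enzymes passed the test by edgeR or DESeq2 (1 at an unadjusted p under 0.05). Over all genes 36.4% were called by edgeR and 45.1% had an unadjusted p under 0.05. Gpi1, which interconverts glucose and fructose phosphates, was at 658 CPM in vehicle and 627 CPM with LPS (−0.07, 95% interval −0.20 to 0.07, adjusted p = 0.422). A near-identical stretch was found in 1 other annotated gene, so the level of Gpi1 is uncertain, as is that of Tpi1 and Pgam1. Adpgk, an ADP-dependent glucokinase, was at 60.9 and 59.0 CPM (−0.04, adjusted p = 0.758). Eno2, the neuronal enolase with 2 rows and an uncertain level, stood at 1.44 (adjusted p = 0.0595). It was called with no filter (adjusted p = 0.0146). Only 7 reads of Eno2 were found in vehicle replicate 1, beside 23 in vehicle replicate 2. Eno2 thus passed the filter on low counts only through LPS-treated libraries, and the filter favoured a rise for it. Its call without vehicle replicate 2 sets the vehicle level by those 7 reads alone and adds no support. Of the 19 genes of this list 11 have several rows and 8 were at 0 in all libraries, so the table does not cover these steps: Gapdh had 13 counts and Eno1 0 over all 6 libraries, and both have near-identical copies elsewhere (78 and 3 other annotated genes).

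Of 5 tested genes that control the phosphofructokinase step or branch from it, 1 rose and 2 fell, beside 19.4% higher and 17% lower over all genes. Tigar, a phosphatase that lowers fructose 2,6-bisphosphate, rose (0.72, adjusted p = 0.0164). Pfkfb2, which makes that activator and has 4 rows and so an uncertain level (−0.73, adjusted p = 0.0206), and Bpgm, which diverts 1,3-bisphosphoglycerate (−0.66, adjusted p = 0.0231), fell. All 3 calls were lost without LPS replicate 1 or 2, which left 0 calls in this list, and 1 was left by DESeq2. Pfkfb4 (−0.24, adjusted p = 0.22, called without vehicle replicate 1 at 0.0124) and Pfkfb1 (0.00, adjusted p = 0.994) had no call, and the 8-row gene Pfkfb3 had no count.

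Genes of pyruvate use fell or had no call: 0 of 11 tested rose and 6 fell, beside 19.4% higher and 17% lower over all genes. The kinases that switch off pyruvate dehydrogenase were among them, with Pdk2 from 12.9 to 2.96 CPM (−2.12, SE 0.32, adjusted p = 0.000519), Pdk1 at −0.63 (adjusted p = 0.00451) and Pdk3 at −0.41 (adjusted p = 0.0315). The opposing phosphatase gene Pdp2 fell too (−0.58, adjusted p = 0.0473), as did the monocarboxylate transporter gene Slc16a7 (−1.38, adjusted p = 0.00049) and the mitochondrial pyruvate carrier gene Mpc2 (−0.47, adjusted p = 0.0187). The dehydrogenase subunit genes Pdha1 and Pdhb stood at −0.05 and −0.03 (adjusted p = 0.717 and 0.78). The calls of Pdk2 and Slc16a7 held under all 14 alternatives. The others were less firm: Pdk3 and Pdp2 lost their call in 8 of 14, Mpc2 without LPS replicate 1 (adjusted p = 0.167) or 2 (adjusted p = 0.0744) and Pdk1 without LPS replicate 2 (adjusted p = 0.0735). Calls in this list numbered 3 without LPS replicate 1, 2 without LPS replicate 2, and 4 by DESeq2, in the fit on the 2 groups and without vehicle replicate 1 or either SGA360+LPS library.

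In the pentose phosphate pathway, which branches off at glucose 6-phosphate, the genes of the cytosolic dehydrogenases that form NADPH, Pgd and G6pdx, rose. Pgd went from 528.0 and 547.9 CPM to 866.4 and 895.6 CPM (0.71, SE 0.06, adjusted p = 9.17e-06), and G6pdx from 235.1 and 245.7 CPM to 324.4 and 326.7 CPM (0.44, SE 0.07, adjusted p = 0.000619). The non-oxidative enzymes Tkt (0.08, 95% interval −0.06 to 0.22, adjusted p = 0.357) and Taldo1 (0.01, 95% interval −0.15 to 0.16, adjusted p = 0.945) did not pass the test. H6pd, the dehydrogenase gene of the endoplasmic reticulum, has 2 rows and stood at −0.40 (95% interval −1.98 to 1.18, adjusted p = 0.705). Of 8 tested members 2 were called, both higher, where 36.4% of all genes were called and 19.4% were higher, and 4 were called without vehicle replicate 1.

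Among genes of glycogen turnover and hexosamine synthesis, 2 of 11 tested rose and 5 fell, beside 19.4% higher and 17% lower over all genes. Gyg, the primer of glycogen, fell from 242.0 and 235.0 CPM in vehicle to 88.3 and 83.0 CPM with LPS (−1.48, SE 0.08, adjusted p = 3.75e-07). The glycogen phosphorylase genes Pygl (−0.94, adjusted p = 1.78e-05) and Pygb (−0.77, adjusted p = 0.000244) fell as well. The glycogen synthase gene Gys1 stood at 0.21 with LPS (adjusted p = 0.145, called without vehicle replicate 2 at 0.0372). With SGA360+LPS against vehicle Gys1 was called higher (0.37, adjusted p = 0.0189), a call lost by DESeq2 and without either SGA360+LPS library. Ugp2, which makes UDP-glucose and has 2 rows, stood at −0.70 with LPS (adjusted p = 0.091) and was called lower with SGA360+LPS against vehicle (−0.89, adjusted p = 0.0425). Gbe1 (0.04, adjusted p = 0.886) and Pgm1 (−0.08, adjusted p = 0.642) had no call, though Gbe1 had one without vehicle replicate 1 (adjusted p = 0.00918). Gfpt2, which opens the hexosamine path from fructose 6-phosphate, rose from 116.7 and 133.0 CPM to 320.0 and 311.6 CPM (1.34, SE 0.08, adjusted p = 5.25e-07).

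Hif1a, encoding the alpha subunit of HIF-1, has 3 rows and had no count, so its level is not described. Of 15 tested genes of the HIF-1 list 5 rose and 2 fell, beside 19.4% higher and 17% lower over all genes. Genes known to be induced by hypoxia did not move as one. Adm (2.35, adjusted p = 0.000654), Egln3 (1.38, adjusted p = 1.86e-06) and Ero1l (0.92, adjusted p = 6.52e-05) rose, as did Ndrg1 (0.90, adjusted p = 1.63e-05) and Ddit4 (0.72, adjusted p = 0.00077). Bnip3l fell (−0.74, adjusted p = 4.92e-05), and Bnip3 (−0.05, adjusted p = 0.795) and Ankrd37 (0.07, adjusted p = 0.935) had no call. Car9 stood at −0.94 (adjusted p = 0.166) and was called lower without vehicle replicate 1 (adjusted p = 0.000524). Epas1, encoding HIF-2 alpha, fell from 313.6 and 361.0 CPM to 143.8 and 140.4 CPM (−1.25, adjusted p = 1.29e-06). The oxygen sensors Egln1 (−0.09, adjusted p = 0.463) and Egln2 (−0.10, adjusted p = 0.435) had no call. Of 7 tested other regulators, Arrdc4, an arrestin-domain gene induced by glucose with 2 rows and an uncertain level, rose (2.73, adjusted p = 7.14e-07) and Mlxipl, encoding the glucose-sensing factor ChREBP, was called lower (−1.55, adjusted p = 0.0421). The call of Mlxipl, on 66 counts in vehicle and 20 with LPS, was lost in 8 of 13 alternatives, by leaving out either library of LPS or of SGA360+LPS among others, with an adjusted p between 0.0105 and 0.336. Mlxipl also passed the filter on low counts only through the vehicle libraries, so the filter favoured a fall for it. Mlxip, with 2 rows (−0.03, adjusted p = 0.857), and Mtor (0.01, adjusted p = 0.937) had no call.

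**Figure D4:**
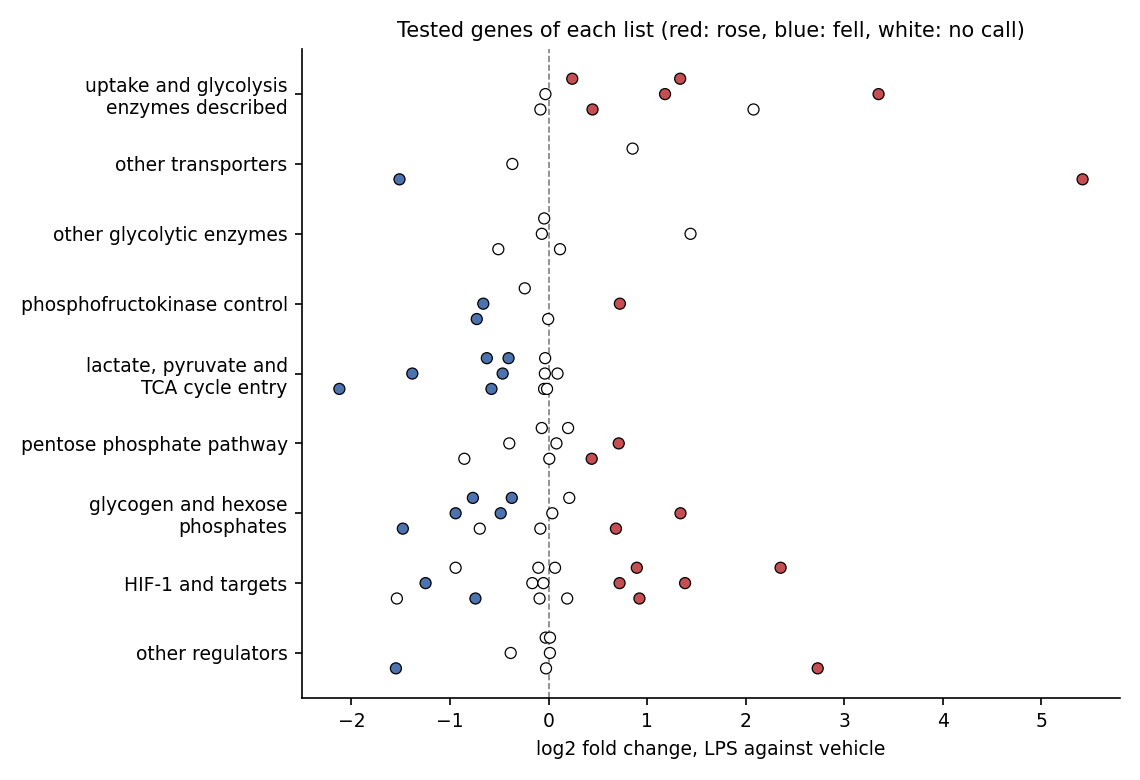
Log2 fold change of LPS against vehicle (horizontal axis) for each tested gene of the uptake and glycolysis genes and of 8 surrounding lists (rows); each point is a gene, red where it rose, blue where it fell and white where it had no call. The list of lactate, pyruvate and entry to the TCA cycle holds 6 blue points and 0 red ones, and that of other glycolytic enzymes holds white points.

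Under SGA360 the surrounding lists had no call. Between SGA360+LPS and LPS 0 of 66 genes passed the test by edgeR or DESeq2, where 0.0746% of all genes were called by edgeR. An unadjusted p under 0.05 by edgeR was found for 1 gene, beside 2.94% of all genes. That gene was Gfpt2, at 320.0 and 311.6 CPM with LPS and 271.1 and 260.9 CPM with SGA360+LPS (−0.25, 95% interval −0.42 to −0.08, adjusted p = 1). Its groups did not overlap, with vehicle lowest and LPS highest. The intervals of Pgd (−0.08 to 0.19), Gpi1 (−0.06 to 0.21) and Epas1 (−0.15 to 0.23) included 0. Against vehicle, 13 of the 66 genes were higher with SGA360+LPS and 16 lower, where 17.9% of all genes were higher and 15.2% lower.

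In the 6 libraries, the genes of at least 5 CPM whose log2 CPM were most like those of Slc2a1 were St3gal1, Tnfrsf1b and Ube2l6, and for Hk2 they included Hcar2 and Rhog, among 7572 genes compared. Pearson's r was over 0.999 for each. This is a description over libraries that fall into 2 low and 4 high ones, so that any gene raised by LPS to a like degree in both treated groups scores near 1.

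The deposited transcripts lie, in mm10, on chromosome 4 from 119108745 to 119137329 (Slc2a1, plus strand), chromosome 6 from 82725027 to 82774454 (Hk2, minus strand) and chromosome 10 from 77986949 to 78009796 (Pfkl, minus strand). Those of Tpi1 lie on chromosome 6 from 124810592 to 124814296 (minus strand), of Pgk1 on chromosome X from 106187100 to 106203699 (plus strand) and of Pgam1 on chromosome 19 from 41911871 to 41918665 (plus strand). All are annotated as protein-coding, and the counts are of reads over their exons. The span of Slc2a1 overlaps Mir1957a and the antisense genes Gm12867 and Gm12868, that of Hk2 the antisense gene Gm17034, and that of Tpi1 the gene Spsb2 on the other strand, and without a stated strand setting reads from such pairs cannot be told apart. Those of Pfkl, Pgk1 and Pgam1 overlap no other annotated gene.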

How the data were processed

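A table with 34751 rows, 1 per RefSeq transcript, was deposited by the authors. The read counts deposited by the authors are whole numbers, for which the submitters' processing notes name TopHat2 2.0.13, HTSeq 0.5.4p3 and mm10, and each row has a gene symbol, a position and an exon length in bases. The sources used here do not state the strand setting, the annotation version or how shared reads were handled. Every sample column matched a label.

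Rows were summed per symbol. After filterByExpr (minimum count 10) and TMM scaling, genes were compared by the quasi-likelihood test of edgeR 4.0.16 in R 4.3.3, in 1 model of 3 groups and 6 libraries with 3 residual degrees of freedom. P-values were adjusted (Benjamini-Hochberg) over 9389 genes with a threshold of 0.05. SE is the absolute log2 fold change over the square root of F, and intervals use the fit's total degrees of freedom. DESeq2 1.42.0 was an alternative, and scripts were tested on simulated counts. RPKM divides CPM by the deposited exon length. Start positions are given as the deposited start plus 1. Near-identical copies were sought with BLAST 2.17.0 in GENCODE transcripts. Replicates of no group agreed within sampling noise, and those of vehicle differed most. Mean chi-square per gene between replicates was 41.6 (vehicle), 5.92 (LPS) and 3.98 (SGA360+LPS). A biological coefficient of variation common to all genes was 0.0951 over all libraries. Fits on the compared groups alone gave 0.119 (LPS, vehicle), 0.115 (SGA360+LPS, vehicle) and 0.0540 (SGA360+LPS, LPS). The spread shared in the main model may thus understate that of vehicle and overstate that of the treated groups.

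The members, lists and tests were chosen with earlier results of these data known. Named genes are the members and, per list, up to 4 called genes by size and 2 abundant ones without a call, at 1 CPM or more. Eno2, Pkm, Pdk3, Mpc2, H6pd, Gys1, Ddit4, Bnip3, Ankrd37, Car9, Gapdh, Eno1, Hif1a, Pfkfb3 and single cell type markers were named after their values were seen. Not every gene the rule names is reported here.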

Additional observations from a re-analysis of the deposited data

How the results depend on the processing

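All 14 alternatives kept the direction of Slc2a1, Hk2 and Pgk1 and their calls in both comparisons with vehicle. Over the alternatives the log2 fold change of LPS against vehicle ran from 1.10 to 1.31 for Hk2 and from 0.40 to 0.53 for Pgk1. The number of the 10 genes called with LPS ran from 3 to 5 with 1 library left out (3 without LPS replicate 1 or 2), and was 0 for SGA360+LPS against LPS under every alternative. For SGA360+LPS against vehicle it ran from 3 to 5. Of 319 values of single genes under an alternative, 12 lost a call, 4 gained one and 303 did neither; the changed ones were of Pfkl, Pfkp and Aldoa. Counts over all genes moved more: 3413 became 5494 without vehicle replicate 2, 2217 without LPS replicate 1 and 2091 without LPS replicate 2, and 3107 for SGA360+LPS against vehicle became 5315, 1831 and 1872 without vehicle replicate 2, SGA360+LPS replicate 1 and SGA360+LPS replicate 2. For SGA360+LPS against LPS, 7 became 11 by DESeq2, 17 with no filter, 12 in the fit on the 2 groups, 15 and 16 without vehicle replicate 1 or 2, 3 when LPS replicate 1 was left out, and 0 when LPS replicate 2 or either SGA360+LPS library was. The cause was not tested. An alternative with symbols of 1 row alone was added after seeing the data and changed no call of the 6 genes with 1 row. Deviations of same-numbered libraries correlated at −0.01, 0.16 and 0.01 in the 3 comparisons. With 2 libraries a group, such values cannot tell whether the replicate numbers pair the libraries. With the replicate block 5, 0 and 4 of the 10 genes were called, and 3434, 5 and 3136 of all genes; Pdp2 (adjusted p = 0.0552) and Mlxipl (adjusted p = 0.0619) lost their call and Ugp2 (adjusted p = 0.0289) gained one with LPS. Low counts limit Hk3, Ldha, Aldoa and Pfkp, genes with several rows and at most 25 counts per library. Pfkp and Aldoa gave no value where a filter removed them.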
